A study of Mus musculus with 12 samples.

Results

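Mouse embryonic stem cells that carried an inducible transgene for mDUX were compared after 24 h of doxycycline and without doxycycline, as whole cultures that had not been sorted. The comparison used 4 of the 12 sequenced samples, 2 libraries from cells with doxycycline and 2 from cells without it, and took in every gene and repeat family of their count table. The libraries were chosen by group alone, so no measured value decided which of them entered. Genes and repeat families were tested only where they had enough reads, and gene lists and named genes were chosen with earlier results known.

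The cells were an embryonic stem cell line with a MERVL::EGFP reporter, a gene for a green fluorescent protein under control of the endogenous retrovirus MERVL, into which a lentivirus with the codon-altered mDUX transgene, mDuxCA with a 3xHA-tag, had been integrated under a doxycycline-responsive promoter. Single-cell clones were selected with drugs, and both groups grew under puromycin and G418, on gelatin, in serum medium supplemented with leukemia inhibitory factor (LIF) and 2i, which blocks the kinases GSK3 and MEK. Both groups carried the transgene and the reporter, and the only labelled difference was the doxycycline. None of the groups used here received doxycycline in cells that lacked the transgene, and an effect of the drug and an effect of mDUX cannot be told apart. The sequence of the transgene differs from that of the endogenous gene, so the row for the endogenous gene, Duxf3, is no measure of the transgene. Separate cultures are not mentioned for the 2 libraries of either group, and p-values then measure only the spread from library to library, which may be technical. The libraries of each group are called A and B.

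DUX is a transcription factor with a pair of homeodomains that is made for a short time when the mouse embryo first switches on its own genome. It binds near genes and retroviral promoters of the cleavage stage, the period of the first cell divisions, and a small share of cultured embryonic stem cells passes through a state with the same transcripts, known as the 2-cell-like state. MERVL and its promoter, the long terminal repeat MT2_Mm, mark that state, together with the Zscan4, Usp17l and Tdpoz gene families.

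Counted reads came to 14365741 and 16940190 with doxycycline, against 16784929 and 18388836 without it, and gene reads to 9555044 and 11111129, against 14208016 and 15468715. Reads assigned to repeats made up the difference, with 33.5% and 34.4% of the counted reads with doxycycline, against 15.4% and 15.9% without it. Levels are given as CPM, the reads of a gene per 1000000 gene reads of its library after TMM scaling, a correction for differences in composition. With gene totals alone in place of TMM, the median log2 fold change of all genes lay at -0.22 in place of 0.00, so that every rise is smaller and every fall larger by about that amount. Counts under this scaling are given beside each gene list where rises no longer outnumbered or no longer equalled falls, and beside some others. The biological coefficient of variation between libraries of a group was 3.78%. The embryonic stem cell markers Pou5f1, Sox2, Nanog, Esrrb and Zfp42 were present in all 4 libraries, from 213 CPM for Sox2 upwards. Each of them was lower with doxycycline, from 1.61-fold for Nanog to 1.90-fold for Sox2. Of the 20 members of the pluripotency list 13 fell and 4 rose, and the largest changes were rises. Sall4 rose 2.79-fold, Gbx2 2.72-fold and Klf5 2.33-fold, and none of the falls reached 2-fold.

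More than 6 in 10 genes passed the test, and the large changes went almost entirely one way. Of 16229 genes tested, 65.2% passed at an adjusted p under 0.05 in edgeR's quasi-likelihood test, 34.0% higher with doxycycline and 31.1% lower. Of the genes that passed, 52.2% were higher, or 35.5% with gene totals. Among genes that changed less than 1.5-fold, 1835 rose and 2630 fell. From 4-fold to 16-fold, 693 rose and 64 fell. Counted from 2-fold upwards, 16.2% of all genes rose and 5.87% fell. Both doxycycline libraries lay above both others for 41.4% of genes and below them for 40.1%. At 16-fold or more, 824 rose and 1 fell, the noncoding RNA Gm27204 at 0.113 and 0 CPM with doxycycline, against 1.17 and 1.14 CPM without it. Fitted folds of genes with few reads in 1 group depend on the prior count of the fit and are no bounds. The 824 genes took 9.38% and 9.64% of gene reads with doxycycline, against 0.0958% and 0.0971% without it. All 5051 genes that fell took 25.4% and 24.8% with doxycycline, against 40.7% and 41.0% without it. In whole cultures, fewer cells that express a gene and less of its RNA in each cell cannot be told apart. Among unprocessed pseudogenes, copies of genes that no longer code, 53 of 96 rose 16-fold or more, or 55.2%, and among protein-coding genes 515 of 13513, or 3.81%. The 53 include Obox pseudogenes, members of 1 family that may share reads, and are not independent of each other. Genes with almost no reads without doxycycline were tested only where the doxycycline libraries had enough reads, which favours rises in these shares.

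**Figure D1:**
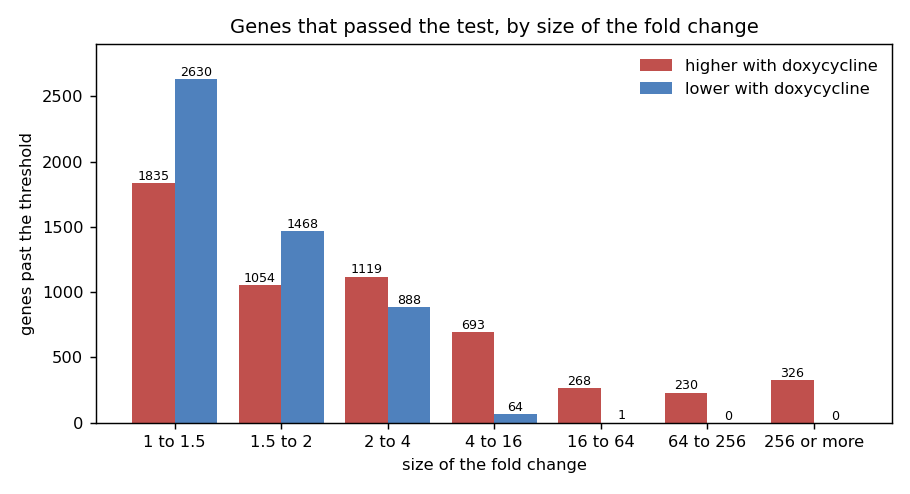
Number of genes past the threshold (vertical axis) by the size of the fold change between doxycycline and no doxycycline (horizontal axis), with genes higher with doxycycline in red and genes lower in blue. Below 2-fold there were more falls than rises, and at 16-fold or more there were 824 rises and 1 fall.

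The largest rises among genes of at least 5 CPM, with plain symbols and at least 10 reads without doxycycline, were mostly those of multicopy families of the 2-cell stage and included a heat shock gene. They were Zscan4d, Zscan4b, Zscan4e, Hspa1a, Zfp352, Usp17lc, BC080695, Zscan4f, Zscan4c and Usp17lb. Zscan4b, a SCAN domain zinc-finger gene, had 501 and 511 CPM with doxycycline, against 0.130 and 0.478 CPM without it, a log2 fold change of 10.62 ± 0.13 (adjusted p = 1.49e-179). Usp17lc, a deubiquitinase gene, had 1225 and 1263 CPM with doxycycline, against 1.17 and 0.837 CPM. Hspa1a, which encodes an inducible HSP70 chaperone (chromosome 17, 34969190 to 34972156, GRCm38), had 598 and 638 CPM, against 0.522 and 0.418 CPM without doxycycline, a log2 fold change of 10.34 ± 0.12 (adjusted p = 4.59e-183). In each case both doxycycline libraries were far above both others. Values of single members of the Zscan4, Usp17l, Obox and Hspa1 families are uncertain, since their sequences are close to identical and it is not known how reads that match several of them were counted. Some genes outside these families had still fewer reads without doxycycline and were named after their values were seen. Their ratios have intervals that cover counting error only. Dcc, the gene for a netrin receptor of growing axons, had 1173 and 1358 reads with doxycycline, against 0 and 1 without it, a ratio of 4240 with an exact 95% counting interval of 760.4 to 167555. Slfn2, a schlafen family gene, had 566 and 701 reads, against 1 and 0, a ratio of 2123 with an interval of 380.3 to 83909, and Ccl3, a chemokine gene, had 384 and 515 reads, against 0 and 1, a ratio of 1506 with an interval of 269.6 to 59557.

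The promoters of 5 of these genes are shown because their genes rose together by more than 1000-fold, and because they let promoters of 1 family be set beside those of unrelated genes. Each holds 250 bases before and 50 bases after the annotated start of the gene, from RefSeq on GRCm38.p6, and capitals mark GATNNAATC, TATAAA and GAANNTTC, a pair of heat shock elements head to head, on either strand. Zscan4d lies at chr7:11166099-11166398 on the minus strand and Zscan4b at chr7:10905001-10905300 on the minus strand. Hspa1a lies at chr17:34972107-34972406 on the minus strand, Zfp352 at chr4:90218570-90218869 on the plus strand, and Usp17lc at chr7:103416446-103416745 on the plus strand.
Zscan4d: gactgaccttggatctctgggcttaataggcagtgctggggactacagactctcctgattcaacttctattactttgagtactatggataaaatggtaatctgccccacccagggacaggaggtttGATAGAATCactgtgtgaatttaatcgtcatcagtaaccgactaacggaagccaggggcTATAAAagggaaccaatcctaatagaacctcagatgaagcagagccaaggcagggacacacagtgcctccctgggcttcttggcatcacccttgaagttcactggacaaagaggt
Zscan4b: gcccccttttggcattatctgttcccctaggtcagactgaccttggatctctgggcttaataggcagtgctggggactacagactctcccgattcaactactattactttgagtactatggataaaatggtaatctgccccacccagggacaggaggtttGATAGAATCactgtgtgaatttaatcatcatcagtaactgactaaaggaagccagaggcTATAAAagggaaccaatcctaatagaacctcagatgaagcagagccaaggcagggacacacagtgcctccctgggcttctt
Hspa1a: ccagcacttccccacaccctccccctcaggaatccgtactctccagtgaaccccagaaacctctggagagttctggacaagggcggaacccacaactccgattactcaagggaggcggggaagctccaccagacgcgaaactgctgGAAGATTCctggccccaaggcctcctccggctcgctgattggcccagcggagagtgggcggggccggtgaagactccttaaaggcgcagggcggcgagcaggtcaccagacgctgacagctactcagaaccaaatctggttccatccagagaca
Zfp352: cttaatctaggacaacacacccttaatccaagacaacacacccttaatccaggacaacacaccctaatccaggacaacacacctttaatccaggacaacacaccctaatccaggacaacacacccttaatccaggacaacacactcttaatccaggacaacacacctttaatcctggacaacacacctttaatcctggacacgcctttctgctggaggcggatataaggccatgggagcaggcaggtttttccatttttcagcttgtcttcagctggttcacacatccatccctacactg
Usp17lc: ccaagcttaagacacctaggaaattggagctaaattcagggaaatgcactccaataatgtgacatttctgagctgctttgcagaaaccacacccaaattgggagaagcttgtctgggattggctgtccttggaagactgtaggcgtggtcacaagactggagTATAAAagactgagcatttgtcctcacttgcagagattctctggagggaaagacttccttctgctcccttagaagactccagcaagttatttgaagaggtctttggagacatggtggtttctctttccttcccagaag
Both Zscan4 promoters held GATNNAATC followed by TATAAA, with first bases at -124 and -65 in Zscan4d and at -90 and -31 in Zscan4b, where -1 is the last base before the start of the gene. The distance between the motifs was the same in both. Usp17lc held TATAAA at -88 and Hspa1a held GAANNTTC at -104, and none of the 3 motifs was found in the window of Zfp352. Among the 10789 tested genes with a promoter entry, TATAAA was found in 7.24%, and among the 389 of them that rose 16-fold or more in 17.7%. For GATNNAATC the shares were 1.10% of tested genes and 5.40% of the 389, and for GATTNAATC, which is contained in it, 0.213% and 2.06%. Over all 27025 promoters, tested or not, the shares were 14.2% for TATAAA, 1.67% for GATNNAATC and 0.281% for GATTNAATC. Tested genes had to have enough reads, so their promoters are no sample of all promoters. Both strands were searched. GATNNAATC and TATAAA were chosen after these promoters had been seen, and a family with similar promoters counts once for each member. A match is a description of the letters in the window and not a site.

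The falls were shallower. The 10 largest among genes of at least 5 CPM were Dpys, Dcdc2a, Dcstamp, Zfp72, Srgap3, Ahnak2, Smtnl1, Fam26e, Fam13c and Msc, and their log2 fold changes ran from -2.59 to -2.09. Smtnl1, a smoothelin-like gene of the contractile apparatus, had 0.792 and 2.04 CPM with doxycycline, against 6.98 and 6.93 CPM without it. Msc, a basic helix-loop-helix repressor gene, had 2.94 and 3.69 CPM with doxycycline, against 15.99 and 12.7 CPM. Among genes of the lists, the gap junction gene Gjb5 had 4.86 and 4.37 CPM with doxycycline, against 18.1 and 19.9 CPM, 4.13-fold lower.

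Among stress genes, most immediate early, integrated stress and heat shock genes were higher, set against 34.0% of all genes that rose and 31.1% that fell. Most unfolded protein and NRF2 genes were not higher, which was also so for the genes tested as a whole. Of 21 immediate early genes tested, which encode short-lived transcription factors and their regulators, 17 rose and 1 fell, set against 34.0% of all genes that rose, and the median log2 fold change of the list was 1.69. Fos, a subunit of the AP-1 factor, had 27.8 and 30.9 CPM with doxycycline, against 1.30 and 1.08 CPM without it, 24.6-fold higher (adjusted p = 2.57e-71). Its partner Jun had 145 and 164 CPM, against 7.90 and 8.61 CPM without doxycycline, 18.7-fold higher. Egr1, a zinc-finger factor downstream of growth factor signals, had 13.5 and 15.6 CPM, against 0.783 and 0.897 CPM. The fall was that of Nr4a1, an orphan nuclear receptor, with 26.8 and 29.9 CPM with doxycycline, against 35.6 and 36.7 CPM without it. For all of these the libraries of a group lay close together and the groups did not overlap, and most genes tested also showed no overlap.

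Heat shock and chaperone genes rose in 12 and fell in 3 of 17 cases, or rose in 9 and fell in 5 with gene totals. The inducible HSP70 pair on chromosome 17 stood apart from the rest. Hspa1b had 497 and 563 CPM with doxycycline, against 2.28 and 2.15 CPM without it, 238-fold higher. The HSP40 co-chaperone Dnajb1 was 2.56-fold higher, at 261 and 267 CPM with doxycycline, against 107 and 98.7 CPM, and the constitutive HSP70 gene Hspa8 2.27-fold higher. The cytosolic HSP90 gene Hsp90aa1 had 1555 and 1494 CPM with doxycycline, against 1618 and 1633 CPM without it, which did not pass (adjusted p = 0.161), and with gene totals it passed as a fall (adjusted p = 1.13e-06). Mitochondrial Hspe1 fell 1.44-fold, to 62.99 and 72.8 CPM with doxycycline, against 95.3 and 101 CPM. The motif GAANNTTC, found in the Hspa1a window shown above, was present in 5.69% of the promoters of tested genes and in 9.25% of those of the 389 genes that rose 16-fold or more. Over all 27025 promoters, tested or not, its share was 7.95%.

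Integrated stress response genes, which follow the transcription factor ATF4, rose in 18 and fell in 2 of 24 cases, and the median of their log2 fold changes was 1.002. Atf4 itself had 839.5 and 873 CPM with doxycycline, against 432 and 428 CPM without it, and its partner Ddit3 had 41.96 and 39.8 CPM, against 19.3 and 18.6 CPM. Ddit4, a repressor of mTOR signalling, had 403 and 423 CPM with doxycycline, against 24.3 and 21.4 CPM, 18.1-fold higher (adjusted p = 1.01e-147). Eif2ak2, the kinase PKR that senses double-stranded RNA, moved the other way, with 20.1 and 18.7 CPM with doxycycline, against 46.4 and 49.1 CPM without it. Genes of the unfolded protein response of the endoplasmic reticulum did not follow, with 4 of 18 higher and 8 lower. Dnajb9, an endoplasmic reticulum co-chaperone, was 3.91-fold higher, at 166 and 159.6 CPM with doxycycline, against 40.3 and 42.7 CPM. Xbp1, a transcription factor of that response, had 67.2 and 64.1 CPM with doxycycline, against 109.9 and 115 CPM, 1.71-fold lower. Antioxidant genes under NRF2 fell in 8 and rose in 5 of 14 cases, set against 31.1% of all genes that fell and 34.0% that rose. The glutathione genes Gsr and Gclm fell 2.13-fold and 1.93-fold, and the heme oxygenase gene Hmox1 rose 1.64-fold. Hypoxia genes rose in 9 and fell in 3 of 15 cases, or rose in 8 and fell in 6 with gene totals, led among highly expressed members by the glucose transporter Slc2a1, at 705 and 738 CPM with doxycycline, against 193 and 180.3 CPM. Hif1a, the factor they are named for, had 132 and 121 CPM with doxycycline, against 165 and 163 CPM, 1.30-fold lower.

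**Figure D2:**
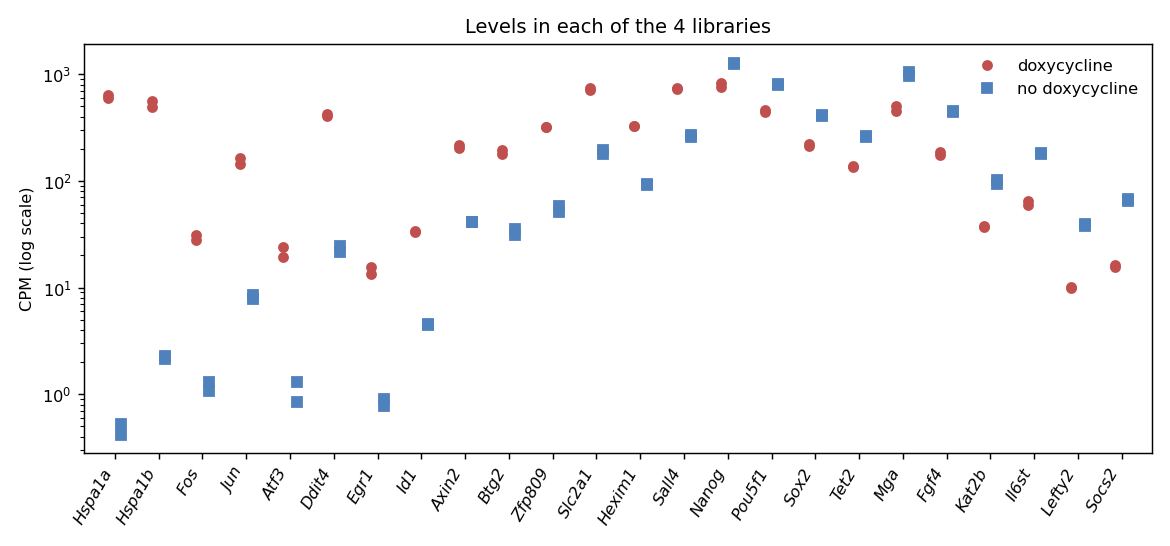
CPM on a log scale (vertical axis) of 24 genes of the lists in each of the 4 libraries, with doxycycline libraries as red circles and libraries without doxycycline as blue squares. The 2 libraries of a group lay close together for each gene and the groups did not overlap for any of the 24. The 24 were picked and are no sample of all genes. Both doxycycline libraries lay above both others for 41.4% of all genes tested and below them for 40.1%.

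Signalling genes rose and fell within each pathway, as did the genes tested as a whole, of which 34.0% rose and 31.1% fell. Of 17 genes of FGF and ERK output, 9 rose and 6 fell. The ligand Fgf4 fell 2.48-fold, to 186 and 175 CPM with doxycycline, against 447 and 449.8 CPM without it. The ERK phosphatase gene Dusp4 had 27.7 and 41.9 CPM, against 2.94 and 2.45 CPM without doxycycline, 13.04-fold higher. Both groups received a MEK inhibitor, which lies upstream of ERK.

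Wnt and beta-catenin genes rose in 7 and fell in 5 of 16 cases, or rose in 7 and fell in 7 with gene totals. Axin2, a negative regulator that beta-catenin induces, had 205 and 217 CPM with doxycycline, against 41.3 and 41.3 CPM without it, 5.10-fold higher (adjusted p = 2.63e-99). Sp5, another target of the pathway, was detected at 1.13 and 1.17 CPM with doxycycline, against 0.848 and 0.717 CPM, and did not pass (adjusted p = 0.271). The frizzled receptor genes, taken as all 10 tested genes of that stem, rose in 7 cases and fell in 2. Fzd4 had 25.1 and 26.04 CPM with doxycycline, against 2.54 and 2.75 CPM, 9.62-fold higher, and Fzd2 was 6.36-fold higher. Fzd10 went the other way, with 20.7 and 19.1 CPM with doxycycline, against 42.8 and 42.6 CPM. Both groups received a GSK3 inhibitor, which stabilises beta-catenin.

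Nodal and BMP genes rose in 9 and fell in 6 of 22 cases, or fell in 11 with gene totals. The Nodal target and inhibitor Lefty2 had 10.1 and 10.01 CPM with doxycycline, against 39.9 and 38.2 CPM without it, 3.88-fold lower. Nodal itself was 1.97-fold lower, at 75.8 and 69.3 CPM with doxycycline, against 147 and 139 CPM. The BMP targets Id1 and Id3, inhibitors of differentiation factors, were 7.40-fold and 6.79-fold higher, Id1 at 33.4 and 34.1 CPM with doxycycline, against 4.50 and 4.60 CPM. In the LIF pathway 4 of 11 members rose and 4 fell, or 3 rose and 7 fell with gene totals. Il6st, which encodes the gp130 receptor chain through which LIF signals, had 64.4 and 59.8 CPM with doxycycline, against 183 and 179 CPM, 2.93-fold lower. The feedback inhibitor Socs2 was 4.13-fold lower, at 15.7 and 16.1 CPM with doxycycline, against 64.4 and 67.2 CPM. Among 14 Notch genes 6 rose and 4 fell, or 5 rose and 5 fell with gene totals. The ligand Dll1 had 7.92 and 12.05 CPM with doxycycline, against 1.24 and 1.08 CPM without it, and the target Hes1 was 1.72-fold lower. Hippo and YAP genes rose in 7 and fell in 9 of 19 cases. The YAP target Cyr61 was 2.53-fold higher and the upstream tumour suppressor Nf2 2.15-fold lower.

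Cell cycle lists showed falls in the genes that load the replication machinery and a mixed picture elsewhere. Of 26 licensing and origin genes, 14 fell and 6 rose. Mcm6, a subunit of the replicative helicase, had 176 and 163 CPM with doxycycline, against 312 and 304 CPM without it, 1.82-fold lower. Of the 10 tested genes of the Mcm stem 7 fell and 1 rose, and the rise was that of Mcm9, a helicase of meiosis and repair, with 335 and 339 CPM with doxycycline, against 20.7 and 21.7 CPM, 15.9-fold higher (adjusted p = 9.30e-143). Mitosis and spindle genes rose in 11 and fell in 6 of 23 cases, or rose in 7 and fell in 12 with gene totals. The kinase Aurka had 327 and 315 CPM with doxycycline, against 162 and 171 CPM, 1.93-fold higher. Subunits of the anaphase-promoting complex fell in 8 of 11 cases, and Anapc7, 1.65-fold higher, was the 1 that rose. Cyclins and CDK inhibitors were evenly divided under TMM, with 11 of 28 higher and 11 lower, or 11 and 15 with gene totals. Cdkn1c, the inhibitor p57, had 6.11 and 6.02 CPM with doxycycline, against 1.11 and 0.956 CPM, and Cdkn2c and Cdkn2b were 2.61-fold and 2.48-fold higher. Ccnd1 and Cdk6, which drive entry into the cycle, were 2.14-fold and 3.01-fold lower. DNA repair genes fell in 13 and rose in 9 of 30 cases. Brca2 rose 2.06-fold and Chek1 fell 1.89-fold.

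Genes of cell death moved in both directions, as did the genes tested as a whole, of which 34.0% rose and 31.1% fell. Of 26 apoptosis regulators 9 rose and 6 fell, or 7 rose and 14 fell with gene totals. Pmaip1, a BH3-only activator of death, was 4.71-fold higher, at 201 and 203 CPM with doxycycline, against 39.9 and 45.7 CPM without it. The survival gene Mcl1 had 1088 and 1063 CPM with doxycycline, against 607 and 677 CPM, 1.67-fold higher, and Bid, another BH3-only gene, had 31.4 and 28.4 CPM, against 67.99 and 68.4 CPM, 2.29-fold lower. Of 21 genes of the p53 pathway 10 fell and 6 rose, Mdm4, an inhibitor of p53, 1.62-fold lower.

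Replication-dependent histone genes rose in 43 of 43 cases, and the median of their log2 fold changes was 3.83. Their transcripts normally lack a poly(A) tail, and the libraries were made from poly(A) RNA. Their summed level was 332 and 371 CPM with doxycycline, against 31.9 and 23.3 CPM without it. Their coding sequences are alike, so counts of single members are uncertain. A further 3 of the 46 listed histone genes found in the table had too few reads to test. Histone variants and chaperones were divided, with 12 of 25 higher and 10 lower, or 6 and 13 with gene totals. The linker histone genes H1fx and H1f0 were 8.39-fold and 4.41-fold higher, H1fx at 38.2 and 48.4 CPM with doxycycline, against 5.02 and 5.32 CPM. Anp32e, which removes H2A.Z from nucleosomes, fell 2.04-fold, to 103 and 98.3 CPM, against 209 and 199.9 CPM without doxycycline.

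Regulators of chromatin were divided within each group, as were the genes tested as a whole, with 34.0% higher and 31.1% lower. Of 35 genes of histone acetylation and demethylation 19 rose and 7 fell, or 15 rose and 13 fell with gene totals. Brd2, a bromodomain reader of acetylated histones, had 2197 and 2313 CPM with doxycycline, against 641 and 598 CPM without it, 3.64-fold higher. Kdm5b, an H3K4 demethylase, was 2.03-fold higher, and the acetyltransferase Kat2b was 2.62-fold lower, at 37.8 and 36.9 CPM with doxycycline, against 94.4 and 101 CPM. A row for a pseudogene of Kat2b, Kat2b-ps, stood at 46.5 and 44.2 CPM with doxycycline, against 20.9 and 22.00 CPM, and reads that match both may have been counted in either row. Of 31 Polycomb genes 14 fell and 10 rose. Bcor, a subunit of a variant PRC1 complex, was 4.71-fold higher, at 94.9 and 107 CPM with doxycycline, against 20.8 and 22.1 CPM. Mga, a scaffold of PRC1.6, fell 2.11-fold, to 501 and 454 CPM with doxycycline, against 973 and 1042 CPM. DNA methylation and TET genes fell in 8 and rose in 3 of 16 cases. The dioxygenase Tet2 had 137 and 135 CPM with doxycycline, against 261 and 265 CPM, and Uhrf2 and Mbd4 rose 2.64-fold and 2.59-fold. Genes of heterochromatin and retroviral silencing rose in 12 and fell in 12 of 29 cases, or rose in 9 and fell in 14 with gene totals. Zfp809, a zinc-finger repressor of retroviral DNA, had 317 and 318 CPM with doxycycline, against 51.02 and 58.2 CPM, and Suv39h2, an H3K9 methyltransferase, had 25.4 and 26.2 CPM, against 47.5 and 51.4 CPM. Remodelling ATPases and BAF subunits fell in 12 and rose in 9 of 28 cases, the NuRD ATPase Chd4 2.06-fold higher and Smarcd1 1.72-fold lower.

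In the transcription machinery 19 of 36 genes of RNA polymerase II, pausing and Mediator rose and 9 fell, or 15 rose and 16 fell with gene totals. Nelfa, a subunit of the pausing complex NELF whose gene is also a marker of the 2-cell state, had 2870.3 and 3037 CPM with doxycycline, against 59.1 and 58.99 CPM without it, 50.04-fold higher (adjusted p = 1.67e-171), and lies on chromosome 5 at 33897916 to 33936413 (GRCm38). Hexim1, an inhibitor of the elongation kinase P-TEFb, was 3.55-fold higher, at 330.2 and 326 CPM with doxycycline, against 93.9 and 91.1 CPM. Aff1, a scaffold of the super elongation complex, was 1.86-fold lower. The splicing list was close to the background, with 13 of 36 higher and 11 lower, or 10 and 22 with gene totals. The kinase Clk1, which phosphorylates SR proteins, and the SR protein gene Srsf5 were 2.16-fold and 2.09-fold higher. Of the 11 tested genes of the Srsf stem 8 fell and 2 rose, with 485 and 451 CPM with doxycycline, against 662 and 660.3 CPM without it, for Srsf3. RNA decay genes rose in 15 and fell in 9 of 29 cases, or rose in 11 and fell in 12 with gene totals. Btg1 and Btg2, which recruit the deadenylase to messenger RNA, were 3.73-fold and 5.63-fold higher, Btg2 at 178 and 194 CPM with doxycycline, against 35.3 and 30.96 CPM. The decapping enzyme Dcp2 had 237 and 219 CPM with doxycycline, against 464 and 473 CPM, 2.06-fold lower. Nonsense-mediated decay genes rose in 3 and fell in 6 of 16 cases. In the microRNA and PIWI machinery 6 of 21 genes rose and 9 fell, with Trim71, a target of let-7, 1.92-fold lower.

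Genes of translation changed little as groups. Cytosolic ribosomal protein genes rose in 13 and fell in 4 of 36 cases, or rose in 3 and fell in 17 with gene totals, and the largest rise was 1.64-fold for Rpl3. Translation factors rose in 12 and fell in 10 of 31 cases, or rose in 6 and fell in 18 with gene totals. Nucleolar and RNA polymerase I genes rose in 11 and fell in 8 of 30 cases, or rose in 6 and fell in 13 with gene totals. Nop56, a core protein of box C/D small nucleolar ribonucleoproteins, was 1.86-fold higher, at 539 and 549 CPM with doxycycline, against 292 and 293 CPM without it. Of 20 aminoacyl-tRNA synthetase genes 6 rose and 5 fell, or 2 rose and 11 fell with gene totals. Iars, the synthetase for isoleucine, was 3.34-fold higher, at 782 and 823 CPM with doxycycline, against 239.6 and 241 CPM, and Lars, that for leucine, was 1.73-fold lower. Proteasome genes mostly did not pass, with 5 of 27 higher and 6 lower, or 2 and 19 with gene totals. Autophagy and lysosome genes rose in 10 and fell in 8 of 25 cases, or rose in 5 and fell in 12 with gene totals, the lysosomal protease Ctsd 1.80-fold lower.

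The SUMO list had the lowest share of rises of any list of 8 or more tested members. Of 20 genes 12 fell and 1 rose, and their median log2 fold change was -0.26, set against 31.1% of all genes that fell. SUMO is a small protein that is joined to chromatin factors and helps to keep retroviruses silent. Sumo2 had 3.96 and 3.98 CPM with doxycycline, against 6.33 and 6.93 CPM without it, and processed copies of that gene make its count uncertain. The rise was that of Pias1, an E3 ligase, 1.30-fold, and with gene totals it did not pass (adjusted p = 0.0674).

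Synthesis lists of metabolism held more falls than rises, and the glucose list more rises than falls under TMM alone. Of 25 genes of serine, one-carbon and nucleotide synthesis 13 fell and 5 rose. Tdh, the threonine dehydrogenase on which mouse embryonic stem cells depend, had 204 and 189.6 CPM with doxycycline, against 398 and 383 CPM without it, 1.99-fold lower. The purine synthesis gene Paics was 2.08-fold lower and the serine synthesis gene Phgdh 2.07-fold higher. Cholesterol synthesis genes fell in 10 and rose in 5 of 21 cases. Dhcr7, which catalyses the last step, was 4.81-fold higher, at 142 and 154 CPM with doxycycline, against 33.1 and 28.5 CPM. Citrate cycle and oxidative phosphorylation genes mostly did not pass, with 5 of 28 higher and 8 lower, or 1 and 22 with gene totals. Cycs, the gene for cytochrome c, stood apart at 115 and 116 CPM with doxycycline, against 7.44 and 9.62 CPM, while Sdhb had 16.6 and 18.4 CPM, against 33.3 and 27.4 CPM. Glucose transport and glycolysis genes rose in 9 and fell in 4 of 20 cases, or rose in 7 and fell in 11 with gene totals, and Slc2a1 was the 1 member that changed at least 2-fold.

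Nuclear and structural genes changed in smaller steps. Of 28 nuclear pore and lamina genes 10 fell and 8 rose, the pore membrane gene Nup210 1.90-fold lower and the importin Kpna2 2.75-fold higher. Cohesin and condensin genes rose in 8 and fell in 7 of 21 cases, or rose in 4 and fell in 11 with gene totals, with the condensin ATPase Smc4 2.11-fold higher. Cytoskeletal genes fell in 11 and rose in 5 of 22 cases. The tubulin genes Tuba1a and Tubb2b moved apart, Tuba1a at 148 and 162 CPM with doxycycline, against 63.6 and 65.4 CPM, and Tubb2b at 204 and 208 CPM with doxycycline, against 423 and 408 CPM. Septins, filament-forming GTPases, fell in 9 of 10 cases, Sept9 2.67-fold and Sept3 3.11-fold, and the 1 rise was that of Sept4, at 1.58 and 1.26 CPM with doxycycline, against 0.391 and 0.777 CPM. That rise did not pass without doxycycline library A or without no-doxycycline library A (adjusted p = 0.131 and 0.184). FKBP prolyl isomerase genes fell in 10 and rose in 4 of 14 cases, and Timm genes, subunits of the mitochondrial import machinery, fell in 9 of 14 and rose in 2. Adhesion and junction genes fell in 10 and rose in 7 of 25 cases. Paraspeckle, nuclear RNA and X inactivation genes rose in 7 and fell in 5 of 16 cases, or rose in 6 and fell in 8 with gene totals. Pvt1, a long noncoding RNA, had 4.64 and 3.01 CPM with doxycycline, against 13.05 and 13.3 CPM, 3.49-fold lower.

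Of 17 sensors of double-stranded RNA and interferon genes tested, 7 fell and 3 rose, set against 31.1% of all genes that fell and 34.0% that rose. A further 10 of the 27 listed genes found in the table had too few reads to test. Ddx58, the sensor RIG-I, had 2.83 and 4.08 CPM with doxycycline, against 8.81 and 8.85 CPM without it, 2.52-fold lower. Stat2, which transmits interferon signals, was 2.41-fold higher. Ifih1, the sensor MDA5, was detected at 0.452 and 0.874 CPM with doxycycline, against 0.130 and 0.239 CPM, too low to test.

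Among germline and imprinted genes there were more rises than falls. Of 21 methylation-sensitive germline genes 12 rose and 3 fell. Stk31, a Tudor domain gene of the germline, had 43.2 and 38.9 CPM with doxycycline, against 5.09 and 5.56 CPM without it, 7.66-fold higher, and Tex15 had 21.3 and 16.2 CPM, against 43.7 and 46.7 CPM, 2.43-fold lower. Imprinted genes rose in 15 and fell in 8 of 27 cases, or rose in 12 and fell in 11 with gene totals. Magel2, from the paternally expressed Prader-Willi cluster, had 8.93 and 10.9 CPM with doxycycline, against 0.196 and 0.239 CPM, and the amino acid transporter Slc38a4 had 106 and 107 CPM with doxycycline, against 304 and 312 CPM, 2.88-fold lower.

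Families of genes with a shared symbol stem and at least 10 tested members were also counted, as a description across 179 stems. The stems with the largest shares of rises were Hist with 48 of 48 genes, Obox with 30 of 30, Olfr with 26 of 33, Pik with 8 of 11, and Cdkn and Fzd with 7 of 10 each. Genes with few reads without doxycycline, as in the Obox stem, were tested only where the doxycycline libraries had enough reads. Members with few reads in both groups were not tested, so these shares do not cover whole families. The median Pik gene stood at a log2 fold change of 0.31 under TMM and 0.09 with gene totals, and 2 of the 11 rose at least 2-fold. Pik3c3, the lipid kinase of autophagy, had 117 and 109 CPM with doxycycline, against 23.4 and 22.8 CPM without it, 4.88-fold higher. The stems with the largest shares of falls were those of septins, Anapc, Srsf, Fkbp, Mcm and Timm genes.

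Markers of other cell types moved in both directions, as did the genes tested as a whole, with 34.0% higher and 31.1% lower. Tead4, Tfap2c, Nes, Fn1 and Pecam1 are given for their level and were chosen after their values were seen. The 14 primitive endoderm markers summed to 83.6 and 78.6 CPM with doxycycline, against 82.7 and 79.2 CPM without it. Of the 8 tested 5 rose and 2 fell. Gata6 had 2.94 and 1.55 CPM with doxycycline, against 0.196 and 0.179 CPM, and Sox17 had 2.38 and 2.53 CPM, against 0.261 and 0.299 CPM. The 16 trophectoderm markers summed to 98.3 and 96.2 CPM with doxycycline, against 140.5 and 148 CPM, with 2 of 11 tested higher and 4 lower. That sum included the transcription factor genes Tead4, at 28.7 and 25.3 CPM with doxycycline, against 46.2 and 48.3 CPM, and Tfap2c, at 16.7 and 16.3 CPM, against 45.2 and 45.4 CPM. Their defining member Cdx2 had 0 and 0.194 CPM with doxycycline, against 0.652 and 0.179 CPM, too low to test. Neuroectoderm markers rose in 7 of 8 cases, and the intermediate filament gene Nes had 143 and 143 CPM with doxycycline, against 70.4 and 75.5 CPM. Sox3, a factor of the epiblast and neural plate, had 18.3 and 19.2 CPM with doxycycline, against 0.326 and 0.239 CPM. Their summed level was 189.7 and 192 CPM with doxycycline, against 105.2 and 103 CPM. Among fibroblast and feeder markers, of which 3 of 6 tested rose, the fibronectin gene Fn1 had 1294 and 1291 CPM with doxycycline, against 1711 and 1681 CPM, 1.31-fold lower. The rises included Col6a1 at 5.43 and 5.64 CPM with doxycycline, against 0.130 and 0.299 CPM, and Thy1 at 19.9 and 19.6 CPM with doxycycline, against 1.70 and 1.55 CPM. Mesoderm markers rose in 2 of 4 cases and summed to 10.97 and 11.2 CPM with doxycycline, against 6.46 and 5.56 CPM. Blood and endothelial markers fell in 1 of 3 cases and summed to 108 and 97.9 CPM with doxycycline, against 182 and 178 CPM, and 2 of the 9 in the table had no read in any library. Nearly all of that sum was Pecam1, an adhesion gene that embryonic stem cells also express, at 97.04 and 89.9 CPM with doxycycline, against 172 and 169.9 CPM. Of the pluripotency list, 13 of 20 members fell and 4 rose, and the part of these other markers in the falls was not tested.

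**Figure D3:**
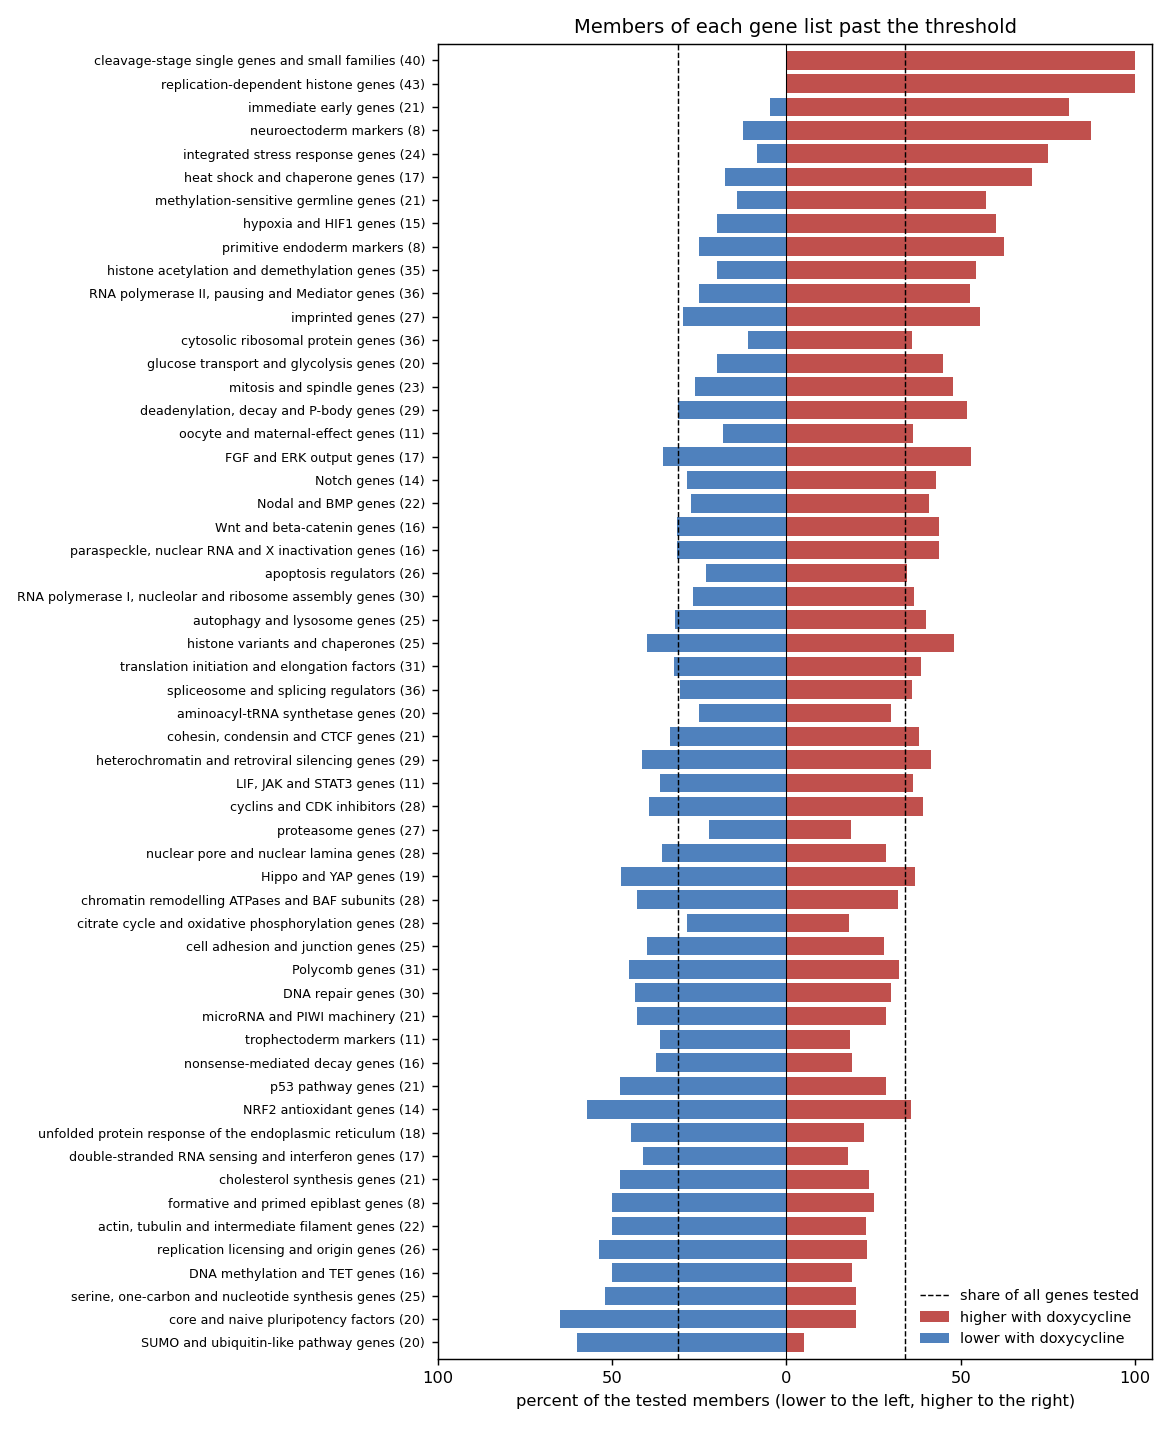
Percent of the tested members of each gene list that passed the threshold, higher with doxycycline to the right in red and lower to the left in blue, for lists with at least 8 tested members (number tested in brackets). Dashed lines mark the shares of all genes tested, 34.0% higher and 31.1% lower, and the list of SUMO genes stands at the bottom with 1 of 20 higher and 12 lower.

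The share of genes that rose was largest among genes of a single exon. Of 358 protein-coding genes whose transcript models all have a single exon, 247 rose and 39 fell, or 69.0% and 10.9%, and their median log2 fold change was 1.02. With 2 exons in the longest model, 53.1% of 554 rose, and with 6 to 10 exons 28.3% of 4056 rose and 37.4% fell. Without histone, cleavage-stage, olfactory receptor and Gm-numbered genes, 173 of 262 single-exon genes rose, or 66.0%. Among genes of at least 5 CPM on average, 70.0% of 190 rose and 14.7% fell. With gene totals, 60.3% of the 358 rose, against 24.5% of all protein-coding genes. The grouping was chosen after the values were seen and the share of single-exon genes was not tested.

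The single-exon genes that rose had varied roles. Spz1, a basic helix-loop-helix gene of the testis, had 171 and 167 CPM with doxycycline, against 0.130 and 0.120 CPM without it. Ttc30b, a gene of ciliary transport, had 192 and 198 CPM with doxycycline, against 5.02 and 5.50 CPM, 36.9-fold higher. Others were the HSP70 pair, Jun, the immediate early gene Ier5 at 14.7-fold, the SOX genes Sox3 and Sox11 at 64.8-fold and 57.5-fold, the frizzled genes Fzd2, Fzd7 and Fzd8, and the histone genes H1fx, H1f0 and H2afx. Simple repeats rose in 180 of 232 families, or 77.6%, a smaller share than the 86.3% of all repeat families tested. Their share of counted reads was 1.61% and 1.77% with doxycycline, against 0.931% and 0.963% without it. Their part in the exon pattern was not tested.

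**Figure D4:**
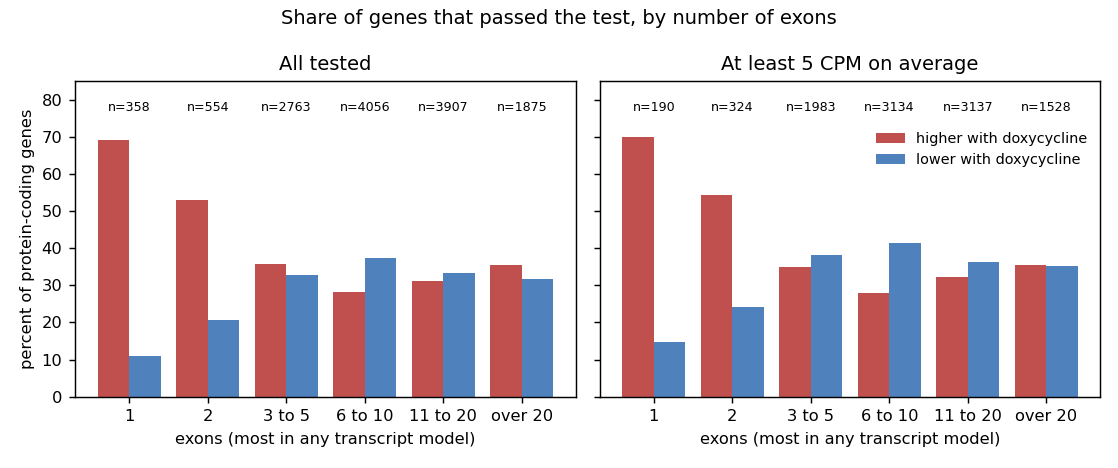
Percent of protein-coding genes that were higher (red) or lower (blue) with doxycycline (vertical axis) by the largest number of exons in any of their transcript models (horizontal axis), for all tested genes on the left and for genes of at least 5 CPM on the right. Single-exon genes rose in 69.0% of cases on the left and 70.0% on the right.

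The largest rises were clustered along the genome. Of 788 genes with a position that rose 16-fold or more, 174, or 22.1%, lay in 19 clusters of at least 5 such genes with gaps of at most 250 kb. Within 10 kb of another gene that rose 16-fold or more lay 29.8% of them, compared with 4.71% of genes that rose 2-fold to 16-fold, 0.619% of genes that fell and 2.83% of all genes tested. The cluster with the most members was that of the Obox homeobox genes and pseudogenes on chromosome 7 (14548714 to 15879968, GRCm38), where 32 of 33 tested genes rose 16-fold or more. All tested genes of the interval summed to 893.6 and 934.0 CPM with doxycycline, against 31.5 and 31.1 CPM without it. The cluster with the highest summed level held Oog1 and 15 genes named mostly by Gm numbers on chromosome 12 (87514316 to 88324026), with 20674 and 20311 CPM with doxycycline, against 19.97 and 24.98 CPM. A cluster on chromosome 1 (84992690 to 85650585) held 15 genes, among them Sp110 and Sp140, whose proteins read chromatin, with 1276 and 1362 CPM with doxycycline, against 14.2 and 11.4 CPM. A cluster on chromosome 11 (94756976 to 94861759) held Tmem92 and 6 neighbours, with 3007 and 3234 CPM with doxycycline, against 6.66 and 6.81 CPM. Others held histone genes on chromosome 13, Tdpoz genes on chromosome 3, Tcstv genes on chromosome 13, Pramef genes on chromosome 4, Speer4 genes on chromosome 5, and olfactory receptor genes on chromosome 19. Many of these clusters hold copies of 1 gene whose reads may be shared, and neighbours are not independent of each other. Genes with few reads in both groups were not tested and are not in the counts of tested genes.

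Repeat families rose as a class. Of 1273 families tested 86.3% rose and 1.34% fell, and 66.9% rose at least 2-fold. The median log2 fold change of all families was 1.43. LTR families rose in 550 of 606 cases and LINE families in 140 of 153. DNA transposon families, which no longer move in the mouse, rose in 134 of 171 cases, with a median of 1.20. All 37 SINE families rose, with a median of 0.92. MERVL-int, the internal region of the retrovirus, and MT2_Mm together took 6.03% and 6.11% of counted reads with doxycycline, against 0.0277% and 0.0305% without it. Single families of other classes also stood out. X7C_LINE had 223 and 213 CPM with doxycycline, against 3.78 and 2.99 CPM without it, 64.4-fold higher, and MER81, a DNA transposon family, had 187 and 191 CPM, against 7.18 and 7.35 CPM, 25.98-fold higher. Satellite families rose in 3 of 5 cases and fell in 0. GSAT_MM, the major satellite of mouse centromeres, had 85.2 and 102 CPM with doxycycline, against 1.70 and 1.31 CPM without it, 62.4-fold higher. The class as a whole took 0.242% and 0.242% of counted reads with doxycycline, against 0.274% and 0.297% without it. Those shares are of all counted reads, which include the repeats that rose, so they cannot be set against CPM and show no fall of the class. Among SINE families B2_Mm1a had 3394 and 4484 CPM with doxycycline, against 742 and 799.7 CPM. Of the 17 falls 5 reached 2-fold, or 0.393% of the families tested, those of MER31-int, L1M3a, LTR16D1, L1M2b and MLT1G3-int. MER31-int had 4.30 and 1.46 CPM with doxycycline, against 6.33 and 6.22 CPM. None of these 5 falls passed in DESeq2, with adjusted p from 0.0931 for L1M3a to 0.145 for MLT1G3-int. In edgeR's test the fall of MER31-int did not pass without doxycycline library B (adjusted p = 0.0531), and those of the other 4 did not pass without no-doxycycline library A, nor without 1 of the doxycycline libraries, B for L1M3a and A for the other 3. The count of 17 falls was 11 without no-doxycycline library B. ERVB7_1-LTR_MM, a family of the ERVK class, fell 1.54-fold, to 178 and 183 CPM with doxycycline, against 275 and 282 CPM.

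**Figure D5:**
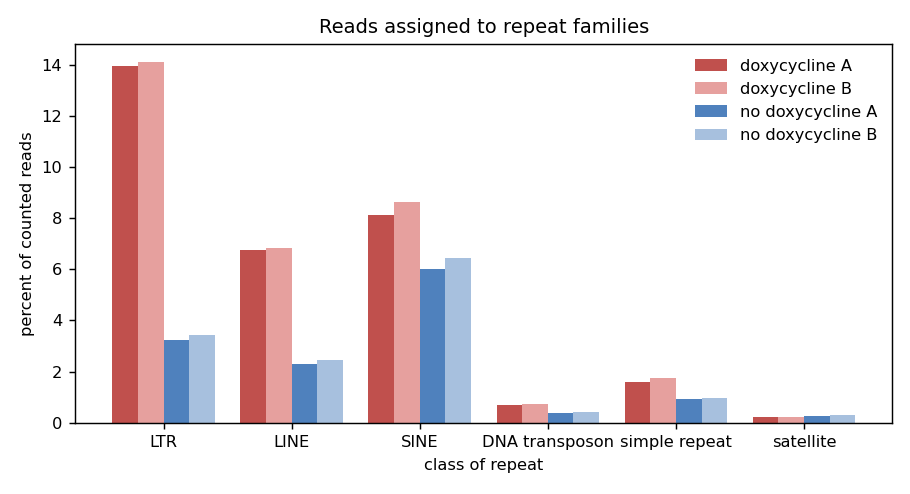
Percent of counted reads assigned to 6 classes of repeat (vertical axis) in the 2 libraries with doxycycline (red shades) and the 2 without (blue shades). LTR families took 13.9% and 14.1% of counted reads with doxycycline, against 3.23% and 3.44% without it, and satellites took less than 0.3% in each library.

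Cells of the same line that were induced and then sorted on the reporter into GFP-positive and GFP-negative cells gave a separate contrast on the same genes. Both sorted groups had doxycycline, so they differ in the reporter and not in the drug. In a fit of all 8 libraries, 7654 of 17820 genes passed in both effects with the same sign. The difference between the doxycycline effect and the GFP-positive effect passed for 30.5% of genes, 3670 above 0 and 1759 below. The balance turned without either GFP-positive library, at 1774 above and 4219 below without library A and at 1933 above and 4187 below without library B, so no sign is called the more common. Of the 17820 genes, 492 went in opposite directions, of which 359 rose with doxycycline and were lower in GFP-positive cells. These counts come from the fit of all 8 libraries, and since the balance of differences turned without either GFP-positive library, neither direction is called the more common. Slc2a1 had a log2 fold change of 1.95 with doxycycline and -0.49 between the sorted groups, a difference of 2.44 ± 0.08. Trib3, a pseudokinase induced by ATF4, had 1.13 with doxycycline and -0.58 between the sorted groups, and the frizzled gene Fzd7 had 1.43 and -0.59. Hspa1a rose in both, by 10.34 with doxycycline and by 5.61 in GFP-positive over GFP-negative cells, a difference of 4.73 ± 0.24. Fgf4, Nodal and Lefty2 fell in both, and for Nodal and Lefty2 the difference did not pass (adjusted p = 0.727 and 0.415). Genes singled out by opposite signs were chosen after their values were seen.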

How the data were processed

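RNA-seq libraries were compared from cells with doxycycline (2 libraries) and without it (2 libraries), and 4 sorted libraries of the same line entered the last comparison. Per the labels' protocols, cells were lysed in TRIzol, and poly(A)-selected stranded TruSeq libraries were sequenced on a HiSeq as single or paired reads, which of the 2 not being stated for each library. The deposited values are raw read counts per gene and per repeat family, as the authors made them, and Novoalign 2.8, DESeq2 and mm10 are named per the submitters' processing notes. Not given in the sources used here: the counting tool, the annotation, the strand setting and the treatment of multi-mapping reads. Columns of the count table name the group but not which sample of it a library is, so the libraries carry letters only.

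The quasi-likelihood test of edgeR 4.0.16 (glmQLFit with robust estimates, glmQLFTest, R 4.3.3) was applied to the counts, with gene reads as library size and TMM factors from genes. The filterByExpr filter, at a count of 10 and a total of 15 or more, left 16229 of 27590 genes and 1273 of 1492 repeat families. Benjamini-Hochberg adjustment was made over genes and over repeat families separately, with a threshold of 0.05. Errors after ± are standard errors of the log2 fold change, and fold changes are doxycycline over none, or their inverse where a fall is given. Of the gene symbols 27 had been turned into dates and were restored, and 400 genes had no symbol. Positions and exon numbers came from GENCODE M21 on GRCm38, which matched 27044 of 27590 genes.

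The joint fit over 8 libraries gave the difference between the doxycycline effect and the GFP-positive over GFP-negative effect. Gene totals, joint scaling with repeats, DESeq2 1.42.0, other filters, a replicate block, the joint fit and leaving out each library were tried. On data simulated from these libraries, 31 of 49 genes changed 1.5-fold, 43 of 49 changed 2-fold, 48 of 48 changed 4-fold and 50 of 50 changed 8-fold were recovered, with 11 false calls, among 15863 genes. Far fewer genes were changed there than passed here, with directions drawn at random and no shift in composition. The simulation therefore does not test the choice of scaling. The gene lists and the genes named were chosen with earlier results of these data known. Genes were named by rank of fold change within the whole table, within each list and within each class of repeat, and others are stated as chosen after their values were seen. A few genes that this ranking names are not reported here.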

Additional observations from a re-analysis of the deposited data

How the results depend on the processing

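With gene totals in place of TMM, 4097 genes were higher and 7458 lower with doxycycline, and with genes and repeats scaled together 5123 and 5694. DESeq2 called 4528 higher and 3538 lower. Without 1 library the counts ran from 4769 to 5198 higher and from 4119 to 4568 lower. Repeat families called higher ran from 1056 to 1094 without 1 library. Those called lower, 17 in all, were 29 with gene totals, 5 in DESeq2 and 11 to 13 without 1 library. Of 172 genes and repeat families named with a test, 164 kept their direction and their side of the threshold in every setting tried. No direction turned. Sall4, Gbx2 and Klf5 are not counted among the 172. The exceptions were Hsp90aa1, Pias1, Sept4 and the 5 repeat families that fell at least 2-fold. Most of the 172 were named for the size of their change in these data, which favours keeping their calls. Of the 5525 rises and 5051 falls over all genes, gene totals kept 4097 and 5051, and DESeq2 kept 4523 and 3538.

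The difference between the doxycycline effect and the sorted effect was above 0 for 3098 genes and below 0 for 2165 with gene totals. Without 1 library these counts ran from 1774 to 3159 above 0 and from 1185 to 4219 below 0. The GFP-positive libraries gave the values at which the balance turned, 1774 and 4219 without library A and 1933 and 4187 without library B, and the cause was not tested.

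Libraries with the same column index did not deviate together (correlation -0.05), so the index is not taken to pair them. A replicate block gave 5384 genes higher and 4873 lower, and 1091 and 16 repeat families. Of 118 counts of list members, 40 moved by more than 1.5 times with gene totals. Depth of 9555044 to 15468715 gene reads, with 2 libraries a group, left 10 of the 27 sensors and interferon genes untested.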
